A study of Mus musculus with 31 samples.

Results

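Genes of the oligodendrocyte lineage were followed in RNA from the basolateral amygdala (BLA) of 31 mice. The 10 genes were chosen by name for their place in the lineage and were matched by symbol to the Ensembl identifiers of the count tables. They are 10 of the 48709 genes listed and 10 of the 17428 genes that were kept for testing, for which 20% of the mice had to have 10 or more reads, and all 10 were kept. Pdgfra and Cspg4 stand for precursors. Olig1, Olig2, Sox10 and Nkx2-2 are transcription factors of the lineage. Gpr17, Bmp4, Enpp6 and Myrf stand for newly formed and differentiating cells. For each gene, the level in every mouse, whether it followed myelin basic protein (Mbp) from mouse to mouse, and the difference between genotypes in each line were examined.

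The transgenic mice (CYFIP1 OE) carried a human CYFIP1 bacterial artificial chromosome, placed by pronuclear injection on the C57BL/6N background, and each line descends from 1 founder, so that insertion site and line cannot be told apart. Ages were 58 to 61 days in the 16 WT mice (8 males and 8 females) and 58 to 77 days in the 15 CYFIP1 OE mice (7 males and 8 females). In line 1, as the labels number it, there were 8 WT and 7 CYFIP1 OE animals, and in line 3 there were 8 of each genotype. The 4 mice of 77 days all belonged to the CYFIP1 OE group of line 1. Each sample held the BLA punches of both hemispheres, and 3′ ends of transcripts were sequenced by QuantSeq, which gives about 1 read per transcript whatever its length. Estimated counts per mouse summed to between 5286708 and 8685308. Levels are given as CPM, the count of a gene relative to the TMM-adjusted total of its mouse, and each mouse was 1 replicate.

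Oligodendrocyte precursors persist in the adult brain, divide in response to platelet-derived growth factor and give rise to new oligodendrocytes. A precursor that commits to differentiation loses the growth factor receptor and the NG2 proteoglycan, passes through a short premyelinating stage and then switches on the myelin genes. Olig2 and Sox10 are present through the whole lineage, so their transcripts come from precursors and from myelinating cells together. In RNA from whole tissue, fewer cells of a type and less RNA per cell cannot be told apart.

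The labelled tissue was checked against markers of BLA neurons and of the neighbouring striatum. All 8 BLA markers passed the filter, and their summed level ran from 170 to 952 CPM. Of 8 markers of striatal projection neurons 7 passed, and their sum ran from 249 to 5918 CPM. The punches therefore differed between mice in the RNA of striatal neurons. The CYFIP1 OE replicate 1 mouse of line 3 had the lowest connectivity with the other mice, a Z-score of -4.74, and the next lowest was -1.18 in the WT replicate 1 mouse of line 3. The authors state that they removed outlying samples whose connectivity Z-score was below -2, and the value of -4.74 computed here is below that limit. Both mice were kept here, and results are also given without them where they change. The mouse gene Cyfip1 had a log2 difference of -0.02 between CYFIP1 OE and WT mice (standard error 0.08, edgeR adjusted p = 0.999), and this does not check the labels, since the transgene is the human gene.

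Sequence upstream of the start was available from RefSeq (GRCm38.p6) for 6 of the 10 genes. Olig2 and Enpp6, which rose with Mbp, and Pdgfra and Cspg4, which gave no such call, are shown because these pairs carry the main contrast among the genes. Each line gives the 250 bases before the RefSeq start, 5′ to 3′ on the strand of the gene, with AACAAT or its reverse complement ATTGTT, a core of SOX family sites, in capitals.
Olig2: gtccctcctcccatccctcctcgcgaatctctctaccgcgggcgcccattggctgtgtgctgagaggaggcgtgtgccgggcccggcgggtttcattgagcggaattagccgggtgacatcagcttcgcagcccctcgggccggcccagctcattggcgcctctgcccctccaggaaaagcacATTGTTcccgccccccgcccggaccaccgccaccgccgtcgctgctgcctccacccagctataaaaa
Enpp6: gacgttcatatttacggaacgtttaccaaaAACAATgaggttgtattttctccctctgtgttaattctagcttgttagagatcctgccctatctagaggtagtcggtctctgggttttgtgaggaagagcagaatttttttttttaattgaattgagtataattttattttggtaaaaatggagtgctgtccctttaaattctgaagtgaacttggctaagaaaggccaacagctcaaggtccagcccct
Pdgfra: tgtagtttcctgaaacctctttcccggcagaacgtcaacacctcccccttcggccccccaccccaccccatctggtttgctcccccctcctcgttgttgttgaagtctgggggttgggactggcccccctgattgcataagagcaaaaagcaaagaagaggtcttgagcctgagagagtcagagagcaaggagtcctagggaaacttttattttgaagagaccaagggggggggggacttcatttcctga
Cspg4: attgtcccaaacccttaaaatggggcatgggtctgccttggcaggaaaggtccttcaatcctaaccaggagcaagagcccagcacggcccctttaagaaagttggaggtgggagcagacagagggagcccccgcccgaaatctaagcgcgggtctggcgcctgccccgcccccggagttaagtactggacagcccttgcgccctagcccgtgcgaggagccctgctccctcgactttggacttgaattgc
These windows are chr16:91225300-91225549 for Olig2, chr8:46986637-46986886 for Enpp6, chr5:75152001-75152250 for Pdgfra and chr9:56864854-56865103 for Cspg4, and all 4 lie on the plus strand. Those of Olig2 and Cspg4 run past the GENCODE starts of these genes (91225457 and 56865033), and the capitals in Olig2 lie past its GENCODE start. The Nkx2-2 window, which is not shown, lies inside its GENCODE gene. AACAAT was found 1 time in Olig2 and 1 time in Enpp6, and 0 times in Pdgfra, Cspg4, Nkx2-2 and Bmp4. It was present on either strand in 9.42% of 32851 promoter windows of the same length. The E-box CAGCTG, which reads the same on both strands and shares no letters in these windows with AACAAT, was present in 4271 of the 32851 windows and in 0 of the 6. A match is a description of letters and not evidence of binding.

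Among the precursor genes, Pdgfra (ENSMUSG00000029231, chromosome 5, 75152292 to 75198215) encodes the alpha receptor for platelet-derived growth factor. In WT mice its lowest, median and highest levels were 7.96, 13.8 and 21.1 CPM, and in CYFIP1 OE mice 8.48, 12.9 and 21.0 CPM. The genotypes covered nearly the same range. Between all 31 mice the coefficient of variation was 23.4%, against 9.92% expected from counting error alone. Pdgfra was the steadiest of the 10 genes by this measure.

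Cspg4 (ENSMUSG00000032911, chromosome 9, 56865033 to 56899870) encodes the NG2 proteoglycan of the precursor surface, which pericytes also carry. It had 3.44, 6.55 and 8.89 CPM as lowest, median and highest level in WT mice and 3.31, 5.32 and 9.62 CPM in CYFIP1 OE mice. In line 3 the 8 CYFIP1 OE mice lay close together, between 4.46 and 5.91 CPM, inside the WT range of 3.44 to 8.89 CPM. In line 1 the 7 CYFIP1 OE mice covered 3.31 to 9.62 CPM, wider than the WT range of 4.17 to 8.38 CPM. Other cells also express these genes, and the summed levels of their markers overlapped between groups. Mural cell markers (8 of 9 passed the filter) summed to 56.4 to 98.8 CPM in WT and 55.6 to 84.1 CPM in CYFIP1 OE mice of line 1, and to 52.6 to 99.99 and 50.4 to 86.6 CPM in line 3. Perivascular fibroblast markers (5 of 7 passed, with Lum and Col3a1 below the filter) summed to 14.7 to 162.9 CPM over the 4 groups, and their part in Pdgfra was not tested.

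Olig1 (ENSMUSG00000046160, chromosome 16, 91269772 to 91271933) encodes a basic helix-loop-helix factor of the lineage. It had 53.2, 91.4 and 243 CPM in WT mice and 42.1, 87.3 and 144 CPM in CYFIP1 OE mice. The highest level belonged to the WT replicate 1 mouse of line 3, and the next mouse of that group had 136 CPM. With 23729 reads over the 31 mice, Olig1 had the smallest counting error of the group (3.61%), and its coefficient of variation was 41.3%.

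Olig2 (ENSMUSG00000039830, chromosome 16, 91225457 to 91228677), the related factor that specifies the lineage, had 7.64, 11.9 and 44.8 CPM in WT and 4.48, 12.1 and 20.1 CPM in CYFIP1 OE mice. Its highest mouse had 9.995 times the level of its lowest. Sox10 (ENSMUSG00000033006, chromosome 15, 79154908 to 79165240), a factor that acts with Myrf on myelin genes, had 10.01, 18.5 and 41.4 CPM in WT and 8.04, 19.0 and 39.1 CPM in CYFIP1 OE mice. Nkx2-2 (ENSMUSG00000027434, chromosome 2, 147177546 to 147194243), a homeodomain factor of early differentiation, was rarely read, with 2 to 45 reads per mouse. Its levels were 0.493, 1.47 and 4.57 CPM in WT and 0.322, 1.14 and 2.87 CPM in CYFIP1 OE mice, and counting error alone would give a coefficient of variation of 27.9% against the 67.3% observed. The genotypes overlapped in all 4 lineage factors.

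Gpr17 (ENSMUSG00000052229, chromosome 18, 31942997 to 31949636) encodes a receptor that appears for a short time in committed precursors. It had 5.15, 10.6 and 16.9 CPM in WT and 6.01, 8.84 and 13.98 CPM in CYFIP1 OE mice. Bmp4 (ENSMUSG00000021835, chromosome 14, 46383520 to 46390669) encodes a secreted ligand found in the same cells. It had the fewest reads, 1 to 44 per mouse, and 0.126, 1.18 and 3.22 CPM in WT and 0.149, 0.932 and 5.75 CPM in CYFIP1 OE mice. Its highest mouse, CYFIP1 OE replicate 2 of line 1, stood far above the next in its group at 1.86 CPM.

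Enpp6 (ENSMUSG00000038173, chromosome 8, 46986887 to 47096762) encodes a choline phosphodiesterase that marks newly forming oligodendrocytes. It had 4.13, 10.5 and 22.1 CPM in WT and 3.05, 7.94 and 13.7 CPM in CYFIP1 OE mice. Myrf (ENSMUSG00000036098, chromosome 19, 10208272 to 10240748), the membrane-bound factor needed to switch on and maintain myelin genes, had 9.86, 14.7 and 44.3 CPM in WT and 5.02, 15.6 and 27.1 CPM in CYFIP1 OE mice. The medians of Myrf were close, but 5 of 16 WT mice lay above every CYFIP1 OE mouse, and 0 of 15 CYFIP1 OE mice lay above every WT mouse. These 5 WT mice came from both lines, and their Mbp levels ran from 1586 to 2744 CPM.

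**Figure D1:**
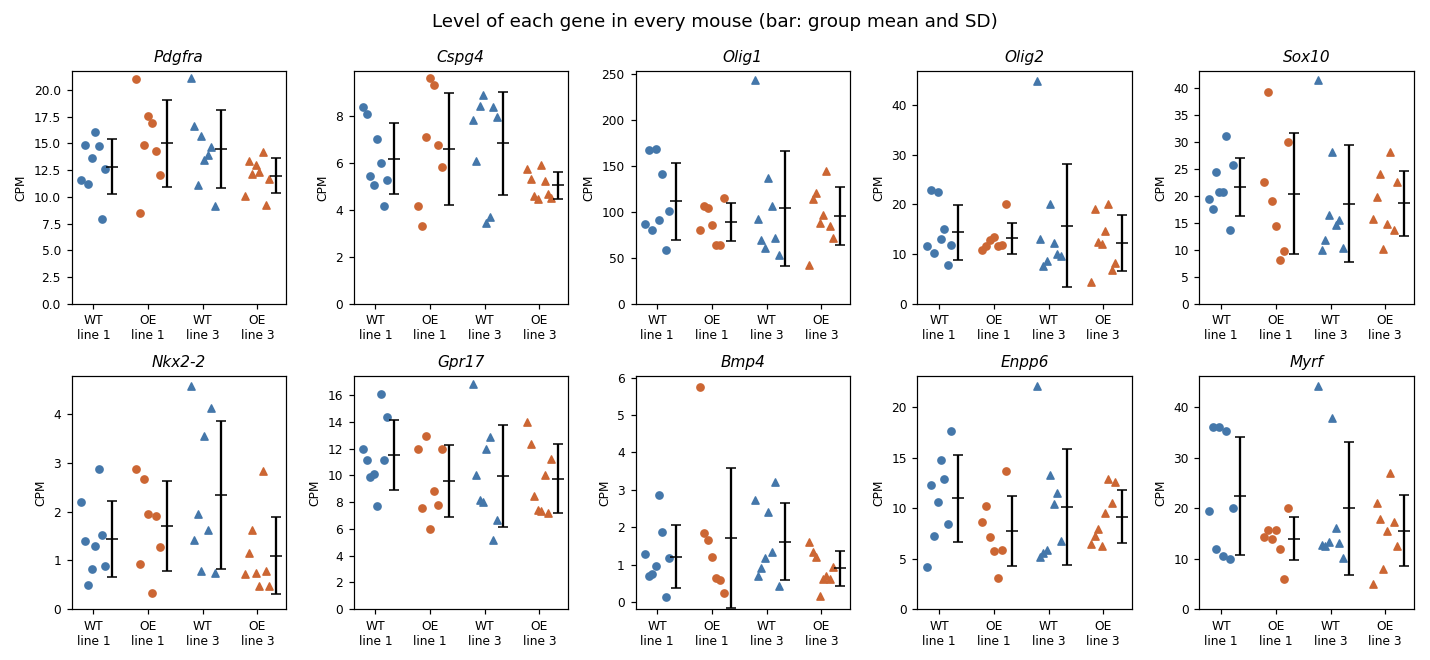
Level of each of the 10 genes in every mouse, in CPM (vertical axis), for WT (blue) and CYFIP1 OE (orange, OE on the axis) mice of line 1 (circles) and line 3 (triangles), with the mean and SD of each group as a black bar. The genotypes overlap in every panel, and 1 WT mouse of line 3 is the highest of all mice for 8 of the 10 genes.

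Symbols of overlapping genes limit some of these values. Gpr17 overlaps Lims2 on the other strand, Nkx2-2 overlaps Nkx2-2os and 6430503K07Rik, and Bmp4, Pdgfra, Olig1 and Enpp6 each overlap a gene model on the other strand. The strand setting of the counting is not given in the sources used here, so reads of these partners could not be told apart. Cspg4, Olig2, Sox10 and Myrf have no overlapping gene in the annotation.

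Mbp, a main protein of compact myelin, served as the measure of myelin RNA. It had 487.5, 1015 and 2744 CPM in WT and 384, 802 and 1714 CPM in CYFIP1 OE mice, so that the mouse with the most Mbp RNA had 7.14 times that of the mouse with the least. For each gene, a slope on Mbp was fitted with edgeR's quasi-likelihood test with sex, line and genotype as covariates, where a slope of 1 means that a gene changes in proportion to Mbp. Mbp and the other genes were read from the same libraries, so the slope shares their composition.

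Of the 10 genes, 5 rose with Mbp at an adjusted p under 0.05 (Benjamini-Hochberg over 17427 genes), and 0 fell. Over all genes 3.27% rose with Mbp and 3.7% fell with it. The median slope was 0.57 for the 10 genes and -0.01 for all genes. The genes that rose were Myrf, Olig1, Olig2, Sox10 and Enpp6, that is 3 of 4 lineage factors, 2 of 4 genes of newly formed cells and 0 of 2 precursor genes.

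Myrf had the steepest slope of the group, 0.83 (standard error 0.09, edgeR adjusted p = 5.46e-08). Olig1 followed at 0.67 (standard error 0.06, edgeR adjusted p = 1.15e-09). Olig2 and Sox10 had nearly equal slopes of 0.66 and 0.65 (edgeR adjusted p = 3.18e-05 and 8.37e-06), and Enpp6 had 0.61 (edgeR adjusted p = 0.000485). The upper ends of the 95% intervals of Olig1, Olig2, Sox10 and Enpp6 were 0.80, 0.86, 0.84 and 0.84, below a slope of 1. That of Myrf reached 1.02, and a change in proportion to Mbp lay inside its interval.

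The precursor genes did not pass the test. Pdgfra had a slope of 0.08 with a 95% interval of -0.10 to 0.26 (edgeR adjusted p = 0.681), and Cspg4 had -0.18 with an interval of -0.41 to 0.04 (edgeR adjusted p = 0.377). Both intervals end well below the slope of Myrf. Gpr17 lay between, at 0.22 with an interval of 0.02 to 0.42 (edgeR adjusted p = 0.186). The rarely read genes had wide intervals, with Nkx2-2 at 0.54 (0.05 to 1.02, edgeR adjusted p = 0.192) and Bmp4 at 0.45 (-0.17 to 1.08, edgeR adjusted p = 0.44). At this depth a slope as steep as that of Enpp6 lay inside the intervals of Nkx2-2 and Bmp4.

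The log2 ratio of Myrf to Pdgfra, a pair chosen with earlier results of these data known, had a slope of 0.78 per doubling of Mbp (standard error 0.10) and of 0.85 without the 2 mice farthest from the median of Mbp. It restates the slopes of the 2 genes in the same mice as one value and is given as a description.

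**Figure D2:**
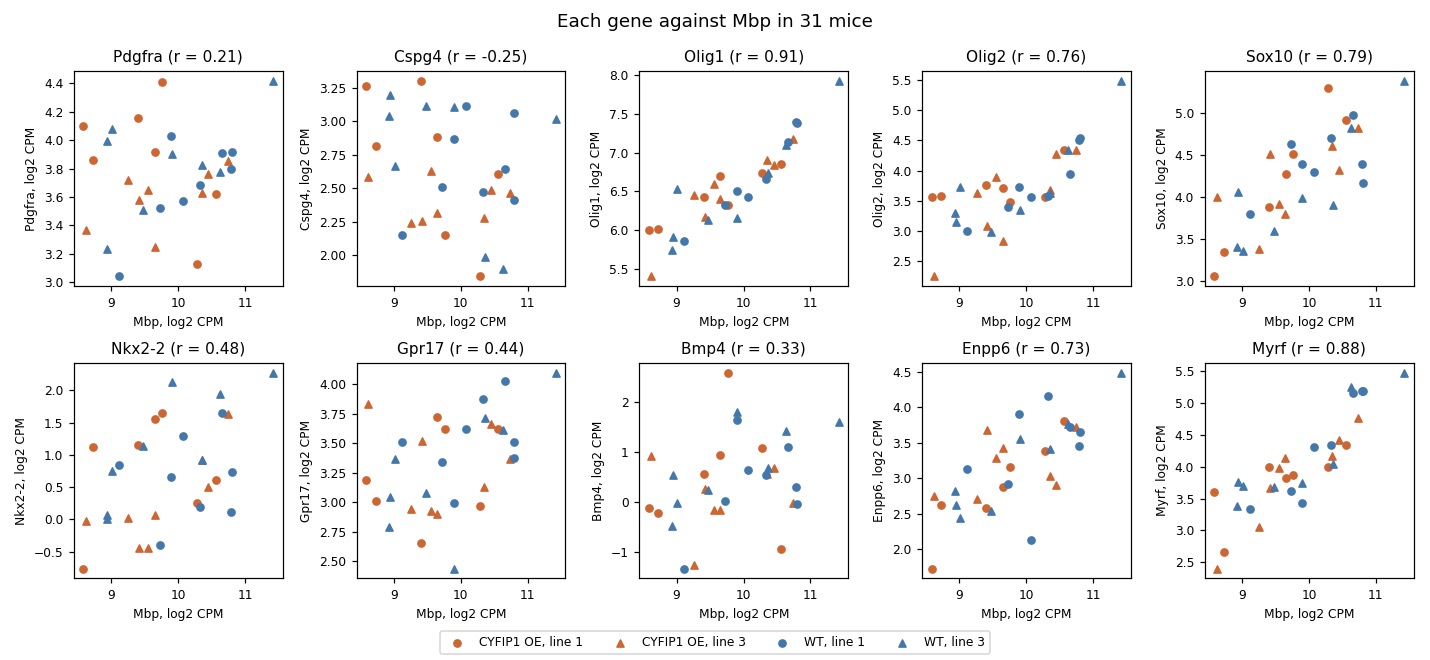
Log2 CPM of each gene (vertical axis) against log2 CPM of Mbp (horizontal axis) in the 31 mice, by genotype (colour) and line (shape), with Pearson r above each panel. Olig1 and Myrf climb with Mbp across the whole range (r = 0.91 and 0.88), while Pdgfra and Cspg4 are scattered (r = 0.21 and -0.25).

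Correlations with Mbp, which use no model, called the same 5 genes. Over all 17427 genes 3.94% were positively correlated with Mbp at an adjusted permutation p under 0.05 (100000 resamples, two-sided, Benjamini-Hochberg). Pearson r was 0.91 for Olig1, 0.88 for Myrf, 0.79 for Sox10, 0.76 for Olig2 and 0.73 for Enpp6 (unadjusted permutation p = 1e-05, the smallest possible, and adjusted p = 0.000789 for each). Spearman rho was 0.90, 0.89, 0.75, 0.70 and 0.72, with adjusted permutation p-values of 0.000826, 0.000826, 0.0014, 0.00278 and 0.00194. Without the 2 mice farthest from the median of Mbp, r was 0.89, 0.88, 0.72, 0.74 and 0.62 in that order.

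The other 5 genes had weaker correlations. Nkx2-2 had r = 0.48 and rho = 0.47 (permutation p = 0.0072 and 0.00747, adjusted p = 0.0755 and 0.0864), and r fell to 0.31 without the 2 farthest mice. Gpr17 had r = 0.44 and rho = 0.43 (adjusted permutation p = 0.117 and 0.136), and without the mouse of low connectivity r was 0.55 with an adjusted permutation p of 0.0396, so that this mouse decided the call. Bmp4 had r = 0.33 and rho = 0.39 (adjusted permutation p = 0.279 and 0.195). Pdgfra had r = 0.21 and rho = 0.15 (adjusted permutation p = 0.555 and 0.728), and Cspg4 had r = -0.25 and rho = -0.26 (adjusted permutation p = 0.46 and 0.465).

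Within lines and genotypes the 5 called genes kept positive correlations. Olig1 had r = 0.91 in both lines, 0.92 in WT and 0.90 in CYFIP1 OE mice. Myrf had 0.86 in line 1 and 0.89 in line 3. The lowest of these within-group values was 0.64, for Olig2 in CYFIP1 OE mice. Pdgfra was uneven, with r = 0.52 in WT and -0.15 in CYFIP1 OE mice, and with -0.11 in line 1 and 0.52 in line 3, a difference between groups that was not tested. Nkx2-2 had 0.12 in line 1 and 0.72 in line 3. The slope fit called 3 genes, Myrf, Olig1 and Sox10, in CYFIP1 OE mice alone and in line 1 mice alone. Olig2 and Enpp6 had slopes of 0.50 and 0.61 in CYFIP1 OE mice (edgeR adjusted p = 0.135 and 0.0796) and of 0.51 and 0.63 in line 1 (edgeR adjusted p = 0.0687 and 0.105). WT mice alone and line 3 mice alone each gave 5 calls.

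Among themselves the genes did not move as a single block. Olig1 was closest to Olig2 (r = 0.90) and to Myrf (r = 0.89), and Enpp6 was closest to Sox10 (r = 0.71). Olig2 and Sox10, although both had r above 0.7 with Mbp, had r = 0.48 with each other. The precursor genes Pdgfra and Cspg4 had r = 0.36. Cspg4 had its lowest values with Enpp6 and Sox10 (r = -0.35 for both), and Nkx2-2 and Bmp4, both rarely read, had r = 0.52. These are descriptions over 31 libraries that share composition.

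**Figure D3:**
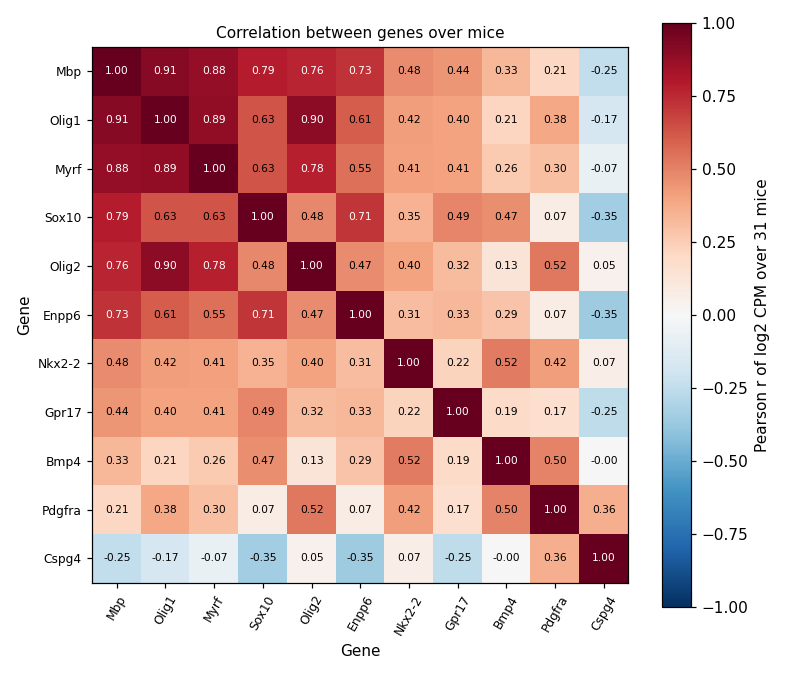
Pearson r of log2 CPM over the 31 mice for each pair of the 10 genes and Mbp, from -1 (blue) to 1 (red). Mbp, Olig1, Myrf, Sox10, Olig2 and Enpp6 form the red corner, and Cspg4 is near 0 or below it with all of them.

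The genes with the most similar pattern over the 31 mice were taken for each member from all genes tested, by Pearson r. Olig1 was closest to Fth1 (r = 0.94), Cryab (r = 0.94) and Gsn (r = 0.93). Olig2 was closest to Fth1 (r = 0.91), Rab31 (r = 0.90) and Olig1. Myrf was closest to Prr18 (r = 0.91), Tmcc3 (r = 0.90) and Trim59 (r = 0.89), and Sox10 to Tmem88b (r = 0.86), Tmem63a (r = 0.86) and Gpr37 (r = 0.85). Enpp6 was closest to 3 genes of myelinating cells, Mal (r = 0.78), Ermn (r = 0.77) and Cldn11 (r = 0.76).

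The genes nearest to those that did not pass the test on Mbp were on none of the lists of the lineage. The same held for the genes nearest to Olig1, Myrf and Sox10, which did pass. Pdgfra was closest to Cbfb (r = 0.74), Aldh6a1 (r = 0.71) and Nxpe3 (r = 0.70), and Cspg4 to Unc13d (r = 0.65), Zkscan4 (r = 0.61) and Cntn3 (r = 0.59). Nkx2-2 was closest to Mcam (r = 0.71), Kat2b (r = 0.71) and Csf1 (r = 0.70). Gpr17 was closest to Magt1 (r = 0.67), Atp7b (r = 0.64) and Pnpla2 (r = 0.64), and Bmp4 to Gkap1 (r = 0.68), N4bp2 (r = 0.67) and Greb1 (r = 0.66). The share of all genes with r above 0.5 did not separate the genes by their call on Mbp, since it was 2.65% for Pdgfra and 2.08% and 1.60% for Sox10 and Enpp6, and its extremes were 0.384% for Cspg4 and 5.23% for Olig2.

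Further genes of the lineage were read the same way. Of 19 myelin genes other than Mbp, 19 rose with Mbp, with a median slope of 0.95. Cldn11, a tight junction protein of myelin, had 1.04, Mog 1.12 and Mobp 0.96 (edgeR adjusted p = 4.66e-16, 2.67e-15 and 7.68e-13). Myrf, at 0.83, lay within the range of the myelin genes, whose lowest slope was 0.69, and Olig1, Olig2, Sox10 and Enpp6 lay below that value.

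Of 14 further precursor genes that passed the filter, 0 rose with Mbp and 2 fell, with a median slope of -0.01. These were Tnr, which encodes the matrix protein tenascin-R (slope -0.30, edgeR adjusted p = 0.0109), and Xylt1, which starts glycosaminoglycan chains (slope -0.48, edgeR adjusted p = 0.0145). Neu4 had 0.38 (edgeR adjusted p = 0.081). Pdgfra and Cspg4 were thus close to the middle of the wider precursor list.

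Of 15 further genes of newly formed oligodendrocytes, 5 rose and 2 fell, with a median slope of 0.07. Bcas1, a marker of early myelinating cells, had a slope of 0.93 (edgeR adjusted p = 1.74e-12), Tcf7l2, a Wnt effector of differentiation, had 0.62 (edgeR adjusted p = 0.000157), and Sirt2 had 0.31 (edgeR adjusted p = 0.000109). The 2 that fell were Rap2a and Sema5a, while Gpr17, Bmp4, Enpp6 and Myrf all had positive slopes.

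Of 18 genes of the BMP and PDGF pathways that passed, 3 rose and 1 fell. Id4, an inhibitor of basic helix-loop-helix factors, had a slope of 0.42 and Smad5, a BMP signal carrier, 0.18, while Chrd, a secreted BMP antagonist, had -0.72 (edgeR adjusted p = 0.00687, 0.0261 and 0.0314). Of 18 other regulators of the lineage, 3 rose and 2 fell. Nkx6-2, a homeodomain factor of myelinating cells, had 0.52, while Sox5 and Nfib, which neurons also express, had -0.57 and -0.44 (edgeR adjusted p = 0.00229, 0.000646 and 0.0067).

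Other cell types also moved with Mbp. BLA neuron markers fell, with 3 of 8 called lower and a median slope of -0.58 (Fezf2 -1.45 and Rspo2 -1.17, edgeR adjusted p = 1.36e-05 and 0.00325). The 7 striatal markers had a median slope of 0.46 with 0 called (Penk 0.44 and Adora2a 0.46, edgeR adjusted p = 0.258 and 0.284). Of 8 neuron markers 3 fell, among them Slc17a7 at -1.43 and Stmn2 at -0.44 (edgeR adjusted p = 0.000149 and 0.00478). The 2 that rose were Gad1 at 0.40 and Gad2 at 0.33 (edgeR adjusted p = 0.00907 and 0.0203). Of 8 astrocyte markers 2 rose (Aqp4 0.38 and Gja1 0.28, edgeR adjusted p = 0.00326 and 0.0374), and the microglia marker P2ry12 had 0.30 (edgeR adjusted p = 0.0675). Endothelial, mural and fibroblast lists had 0 calls, and the slopes of smallest p were 0.12 for Ly6c1 and 0.06 for Slco1a4, -0.20 for Higd1b and -0.17 for Acta2, and -0.75 for Dcn and 0.24 for Col1a2. The part of neuronal composition in the slopes of the 10 genes, and in those of the precursor and other lists, was not tested.

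**Figure D4:**
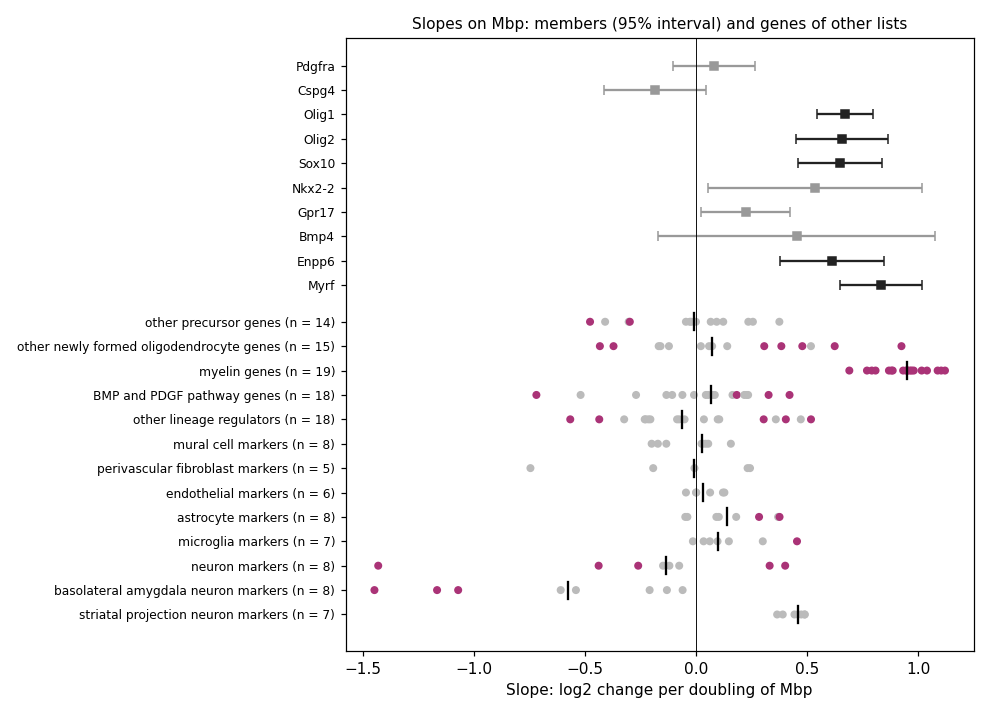
Slope of each gene on Mbp (horizontal axis, log2 change per doubling of Mbp). Squares are the 10 genes with 95% intervals, black where the adjusted p is under 0.05 and grey otherwise. Dots are the genes of the other lists, purple where the adjusted p is under 0.05, and the vertical tick is the median of the list. Myelin genes lie between 0.69 and 1.12, and the precursor list centres on 0.

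Genotype was tested in all mice with sex and line as covariates, and in each line with a term for each genotype in each line. With all mice, the edgeR adjusted p was under 0.05 for 0 of the 10 genes and for 0.0% of all genes, and 0 of 10 had an unadjusted p under 0.05, against 4.3% of all genes. The smallest p belonged to Myrf, whose mean was 21.2 ± 12.1 CPM in the WT group (SD, n = 16) and 14.8 ± 5.78 CPM in the CYFIP1 OE group (SD, n = 15), a log2 difference of -0.47 with a 95% interval of -0.96 to 0.03 (edgeR p = 0.0651, adjusted p = 0.999). Of 15 CYFIP1 OE mice, 1 exceeded the WT average. That average lay above the medians of both groups, 14.7 CPM in WT and 15.6 CPM in CYFIP1 OE mice. The unadjusted p of Myrf was 0.0479 with DESeq2 and 0.0357 in edgeR with no filter on low counts (adjusted p = 0.9997 and 0.621). Its log2 difference was nearer to no change, at -0.16, with Mbp as a covariate and at -0.11 with 5 surrogate variables. Neither of these fits gave it an unadjusted edgeR p under 0.05.

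All 10 estimates over all mice were negative, with a median of -0.21 against -0.01 for all genes. The estimates are not independent, since 5 of the genes rise together with Mbp, and Mbp itself had -0.35 (95% interval -0.85 to 0.16, edgeR p = 0.175). With TMM, DESeq2 size factors or DESeq2 the 10 signs were the same, while 6 of 10 were negative with Mbp as a covariate and 6 of 10 with 5 surrogate variables. Without the WT mouse of highest Mbp or without the mouse of low connectivity 8 of 10 were negative. Nkx2-2 (-0.46), Enpp6 (-0.31), Bmp4 (-0.23), Olig2 (-0.22), Olig1 (-0.20), Cspg4 (-0.18), Gpr17 (-0.15), Pdgfra (-0.03) and Sox10 (-0.02) had edgeR p-values between 0.159 and 0.924. The narrowest intervals were those of Pdgfra (-0.29 to 0.24) and Gpr17 (-0.46 to 0.16), so that a difference of 1.5-fold or more lay outside the interval of Pdgfra.

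In line 1, 0 of the 10 genes had an adjusted p under 0.05, against 0.0% of all genes, and 0 had an unadjusted p under 0.05, against 3.96%. Estimates were negative for 6 and positive for 4, with a median of -0.08. Myrf had 9.86, 19.8 and 36.2 CPM as lowest, median and highest level in WT mice and 6.03, 14.4 and 20.1 CPM in CYFIP1 OE mice. The upper part of the WT range, held by 3 mice between 35.2 and 36.2 CPM, had no counterpart in CYFIP1 OE mice, and the ranges overlapped below it. The log2 difference of Myrf was -0.62 (95% interval -1.33 to 0.09, edgeR p = 0.0865, adjusted p = 0.9999). Its WT average was 22.4 CPM, above the WT median, and 0 of 7 CYFIP1 OE mice exceeded that average. With line 1 mice alone in the fit, the edgeR p was 0.0404 (adjusted p = 0.886), and with no filter on low counts it was 0.0389 (adjusted p = 0.723). Over the alternatives run, the line 1 estimate of Myrf lay between -0.72 and -0.05. Enpp6 had -0.50 (edgeR p = 0.121), beside -0.53 for Mbp (edgeR p = 0.152).

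Pdgfra, whose line 1 means were 12.8 ± 2.57 CPM for WT (SD, n = 8) and 15.0 ± 4.05 CPM for CYFIP1 OE (SD, n = 7), had a log2 difference of 0.23 (95% interval -0.14 to 0.59). Its CYFIP1 OE mice aged 77 days had a mean of 14.4 CPM and the other 3 a mean of 15.8 CPM. For Enpp6 these means were 6.52 and 9.38 CPM, and for Cspg4 7.34 and 5.59 CPM. Without the mice aged 77 days Cspg4 changed from 0.09 to -0.16. Of the 8 WT mice of line 1, 7 shared a name prefix that 0 CYFIP1 OE mice carried, so this prefix and the genotype cannot be told apart there.

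In line 3, 0 of 10 genes had an adjusted p under 0.05, against 0.0% of all genes, and 1 of 10 had an unadjusted p under 0.05, against 7.93%. That gene was Nkx2-2. In WT mice its lowest, median and highest levels were 0.737, 1.79 and 4.57 CPM, and in CYFIP1 OE mice 0.466, 0.763 and 2.83 CPM. The groups overlapped, and 1 of 8 CYFIP1 OE mice exceeded the WT average of 2.34 CPM, which lay above the WT median. The log2 difference was -1.07 (95% interval -2.04 to -0.11, edgeR p = 0.0308, adjusted p = 0.584). This estimate rests on 3 to 20 reads per CYFIP1 OE mouse. Without the mouse of low connectivity it was -0.98, and without the WT mouse of highest Mbp -0.90, and in both fits the unadjusted p was above 0.05.

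Cspg4, whose line 3 means were 6.83 ± 2.18 CPM for WT and 5.06 ± 0.574 CPM for CYFIP1 OE (SD, n = 8 each), had a log2 difference of -0.43 (95% interval -0.90 to 0.03, edgeR adjusted p = 0.654), and 0 of 8 CYFIP1 OE mice exceeded the WT average. Pdgfra had -0.27 (interval -0.63 to 0.08) and Bmp4 -0.84 (interval -1.99 to 0.31), and again 0 of 8 CYFIP1 OE mice exceeded the WT average. For Bmp4 that average, 1.617 CPM, lay above the WT median of 1.255 CPM. Myrf had -0.32 (interval -1.01 to 0.36), and Sox10 had 0.02. Of the 10 estimates 9 were negative, with a median of -0.30, but without the WT mouse of highest Mbp 5 of 10 were negative with a median of -0.00, so the shared direction was not present without this mouse.

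The difference between the lines was tested as an interaction. It gave 0 of 10 genes with an adjusted p under 0.05 (0.0% of all genes) and 0 with an unadjusted p under 0.05 (8.1% of all genes). The smallest p was that of Pdgfra, whose genotype difference in line 3 was lower than that in line 1 by a log2 value of -0.50 (95% interval -1.00 to 0.01, edgeR p = 0.0545, adjusted p = 0.629). Nkx2-2 followed with -1.26 (interval -2.64 to 0.12, edgeR adjusted p = 0.66). Both precursor genes, Nkx2-2 and Bmp4 had positive estimates in line 1 and negative ones in line 3, but none of these contrasts between lines passed the test.

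**Figure D5:**
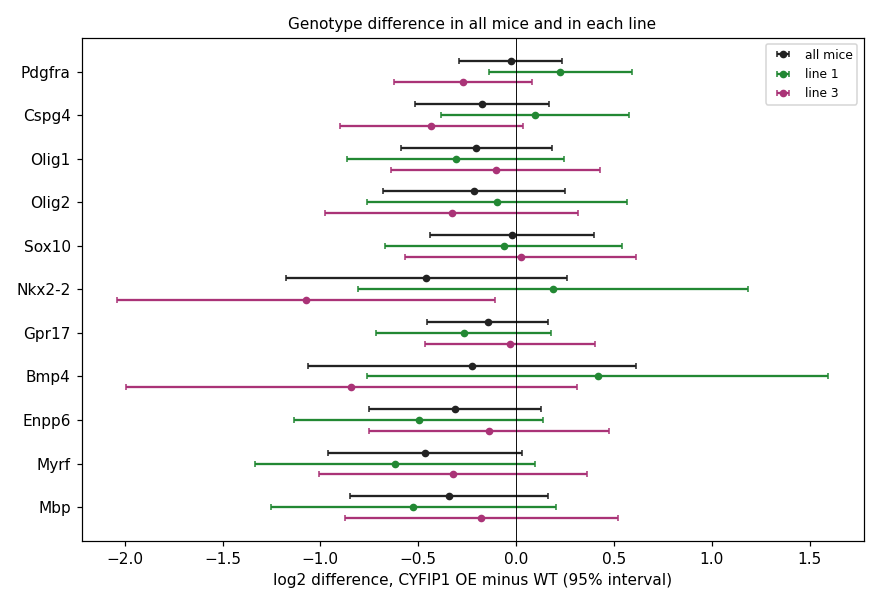
Log2 difference between CYFIP1 OE and WT mice (horizontal axis) for the 10 genes and Mbp, in all mice (black), line 1 (green) and line 3 (purple), with 95% intervals. Every interval includes 0 except that of Nkx2-2 in line 3, which ends at -0.11.

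Estimates for the neuron markers of the punches are given here beside these values, and in both lines 0 striatal and 0 BLA markers had an adjusted p under 0.05 in edgeR. In line 1 all 7 striatal markers were lower in CYFIP1 OE mice (median log2 difference -0.81) and all 8 BLA markers higher (median 0.60). In line 3 all 7 striatal markers were higher (median 0.68) and 7 of 8 BLA markers lower (median -0.31). The summed striatal level ran from 2934 to 4219 CPM in WT and from 695 to 4665 CPM in CYFIP1 OE mice of line 1, and from 249 to 5316 and from 288 to 5918 CPM in line 3. In line 1 the summed BLA level had a median of 313 CPM in WT (193 to 405) and 291 CPM in CYFIP1 OE mice (194 to 952). The CYFIP1 OE median was thus the lower one, although all 8 estimates were higher. In line 3 the medians were 352 CPM in WT (212 to 543) and 305 CPM in CYFIP1 OE mice (170 to 463). The 20 myelin genes, Mbp included, had negative estimates in both lines (medians -0.42 and -0.22). The unadjusted p was under 0.05 for 2 BLA markers in line 1, for 0 in line 3 and for 0 striatal markers in either line. The part of these differences in the genotype estimates of the 10 genes was not tested beyond the fit with Mbp.

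Among the other lists, genotype calls over all mice were 0 in every list at an adjusted p under 0.05. At an unadjusted p under 0.05, 0 of 14 precursor genes, 2 of 15 genes of newly formed cells (Mpzl1 and Tmem163), 1 of 20 myelin genes (Hapln2), 1 of 18 pathway genes (Pdgfrb) and 1 of 18 regulators (Hes5) were counted, against 4.3% of all genes. Pdgfrb, at -0.43 (edgeR p = 0.0497, adjusted p = 0.999), is also on the mural cell list, where 5 estimates were higher and 3 lower in CYFIP1 OE mice. Of the other cell type markers, Gjb6 and Aldoc of astrocytes had 0.39 and 0.22, Tmem119 of microglia 0.48 and Igf2 of the fibroblast list -0.99 (edgeR p = 0.00781, 0.0195, 0.00727 and 0.0149, adjusted p = 0.999 for each). Their lists were mixed in direction. Estimates were higher in CYFIP1 OE mice for 3 and lower for 5 astrocyte markers. These counts were 5 and 2 for microglia and 3 and 2 for fibroblast markers. Mpzl1 had -0.60 (edgeR p = 0.000794, adjusted p = 0.999) and Hes5, a Notch target that holds precursors undifferentiated, had 0.48 (edgeR p = 0.00625, adjusted p = 0.999).

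Between the WT groups of the 2 lines, 0 of the 10 genes had an adjusted or unadjusted p under 0.05 in edgeR, against 0.0% and 4.41% of all genes. Estimates ran from -0.25 for Sox10 to 0.66 for Nkx2-2. Between the sexes, 0 of the 10 genes had an adjusted or unadjusted p under 0.05 in edgeR, against 0.0631% and 4.62% of all genes. All 10 estimates were lower in females than in males, from -0.40 for Nkx2-2 to -0.03 for Enpp6, and each interval included 0. The male group held the WT mouse of highest Mbp. Without that mouse Olig2 and Enpp6 had 0.03 and 0.08, and the estimates of the other genes were still lower in females.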

How the data were processed

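RNA from the BLA of 31 mice was sequenced by QuantSeq. The authors mapped reads with STAR to GRCm38 and deposited expected counts from Salmon for each mouse, without normalization. The sources used here name Picard and MultiQC for quality checks.

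Estimated counts were rounded, and a gene was kept where 20% or more of the mice had 10 or more reads. Symbols and positions came from GENCODE for GRCm38, which named 48349 of 48709 genes. Tests used edgeR 4.0.16 (TMM, quasi-likelihood F test, two-sided, Benjamini-Hochberg over all genes kept), in R 4.3.3. The authors' 5 sequencing principal components were not used here. Log2 CPM had a prior count of 2, and permutations used numpy 2.4.6. DESeq2 1.42.0, sva 3.50.0 and other filters, covariates and subsets served as alternatives. The steps were tested on simulated data. Sample groups came from the labels. Some list genes and 1 alternative are not reported here.

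The members and lists were chosen with earlier results of these data known. Named genes are the members, the 3 likest genes of each, and in each list those with the smallest p. Total counts of 5286708 to 8685308 limit Nkx2-2 and Bmp4 most.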

Additional observations from a re-analysis of the deposited data

Results flagged for a closer look

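For the 10 genes and Mbp, each of the 4 groups of a genotype in a line was searched for a mouse that stood far from the rest of its group, which made 44 groups. In 4 of them a mouse stood apart. A chance rate of about 1 in 20 groups assumes independent, normally distributed values. The genes share mice and several are correlated, so whether 4 of 44 exceeds chance was not tested. The WT replicate 1 mouse of line 3 was far above its group for Olig1, with 243 CPM against 136 in the next mouse, and for Olig2, with 44.8 CPM against 19.98. The same mouse had the most Mbp of all 31 mice. The CYFIP1 OE replicate 9 mouse of line 1 was far above its group for Olig2, with 20.1 CPM against 13.4, and it had the most Mbp of that group. The CYFIP1 OE replicate 2 mouse of line 1 was far above its group for Bmp4, with 5.75 CPM against 1.86, and it also had the most Pdgfra of that group, 21.0 CPM.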

How the results depend on the processing

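The number of members called for the slope on Mbp was 3 in CYFIP1 OE mice alone and in line 1 mice alone, where fewer mice were fitted, and 5 under the other alternatives given here. For genotype in all mice and in each line, the interaction, the WT lines and sex, 0 members were called under every alternative run, the correlation with Mbp called 5 members and, without the mouse of low connectivity, 6, and the slope of the Myrf to Pdgfra ratio ran from 0.75 to 0.85.

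Uncalled estimates changed sign by more than 1 standard error in 13 of 623 values, and the cause was not tested. For genotype in all mice, Pdgfra, Olig1 and Olig2 were 0.11, 0.081 and 0.15 with 5 surrogate variables, Olig1 and Olig2 were 0.062 and 0.054 with Mbp as a covariate, and Gpr17 was 0.074 in name prefixes that hold both genotypes. In line 1, Olig1 and Olig2 were 0.14 and 0.37 with Mbp as a covariate, and Cspg4 was -0.16 without the mice aged 77 days. Without the mouse of highest Mbp, an alternative chosen after seeing the data, Olig1 and Olig2 were 0.18 and 0.082 in line 3, and Olig2 was -0.32 between the WT lines. The slope of Pdgfra was -0.020 in CYFIP1 OE mice alone.

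Genes called for the slope ranged from 302 to 1496 against 1214, with the fewest in WT mice alone. Calls for genotype were 0, and 3 with surrogate variables, and in line 3 they were 0, and 4 with DESeq2. For sex they were 11, and 4 with at least 10 reads in every mouse. Nkx2-2 and Bmp4 could not be tested with that filter, and Bmp4 not with line 3 mice alone. No paired analysis was possible because the labels give no replicate numbers that tie mice of different groups. Name prefixes, of which 5 held both genotypes and whose meaning is not given, served as a block in all mice and in line 3 alone, and both fits called 0 members.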
